A study of Mus musculus with 15 samples.

Results

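Transcripts of 8 mouse genes that move calcium and magnesium in the distal nephron were followed in 15 kidney RNA libraries. The genes were picked by symbol from the 24421 symbols of the count table: Trpm6, Cnnm2, Trpv5, Calb1, S100g, Slc8a1, Casr and Pvalb. Their choice did not use the counts, but it was made with earlier results of these data known. The kidneys came from wild-type mice at day 14 and formed 3 groups. The UUO_Si group (6 libraries) had the UUO operation and the Si-based diet, and the UUO group (6 libraries) had the same operation with the normal diet. The sham group (3 libraries) had a sham operation with the normal diet. UUO is taken here as unilateral ureteral obstruction, in which the tied ureter dams urine back into the kidney. Each library was total RNA of bulk kidney, so fewer cells of a segment and less RNA per cell cannot be told apart in any value below. No sham group received the Si-based diet, so the diet could be compared in obstructed kidneys only. Strain, sex, age, diet dose and the side sampled are not given in the labels. The labels do not say that replicates were separate animals, so p values measure the spread between these samples, which may be technical.

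The distal convoluted tubule and the connecting tubule set the final calcium and magnesium content of urine. In both, the ion enters from the urine through a channel in the apical membrane and is handed out to the blood across the basolateral membrane. Calcium is carried between the membranes by small binding proteins, and parathyroid hormone and active vitamin D raise its uptake. Upstream, in the thick ascending limb, both ions pass between the cells, and a calcium-sensing receptor adjusts that flow.

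In UUO kidneys 6 of the 7 transcripts other than Pvalb were lower than in sham kidneys. The remaining 1, that of the calcium channel Trpv5, was higher. Pvalb is not counted here because its fall was bound to appear, as set out below. The calcium-binding proteins were lowest relative to sham kidneys: Calb1 was 20.5-fold lower and S100g 9.78-fold lower in UUO kidneys, and Pvalb was almost absent. The other 4 transcripts that fell, Slc8a1, Cnnm2, Trpm6 and Casr, were 1.69-fold to 2.35-fold lower. Against sham kidneys, UUO_Si kidneys also had 6 of the 7 transcripts other than Pvalb lower and Trpv5 higher. No member differed between UUO_Si and UUO kidneys in edgeR's quasi-likelihood test, with p values adjusted over 16752 genes by the Benjamini-Hochberg method.

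Member counts are to be read against changes in a large part of the transcriptome. Between UUO and sham kidneys 26.4% of the 16752 tested genes were lower and 27.5% were higher at an adjusted p under 0.05. All 8 members were tested, 7 of them lower and 1 higher. In UUO_Si kidneys 25.5% of tested genes were lower and 27.2% higher than in sham kidneys, and the members again split into 7 lower and 1 higher. Libraries of the groups did not overlap for any member: 7 members lay wholly lower in UUO than in sham kidneys, as did 22.3% of tested genes, and 1 lay wholly higher, as did 24.6%. For UUO_Si against sham kidneys the same 7 and 1 did not overlap, beside 21.8% of genes lower and 24% higher. Both contrasts share the 3 sham libraries and are not independent. Before the members are taken singly, 4 libraries need naming: UUO_Si replicate 6, UUO replicates 5 and 6 and sham replicate 3 had counts in most olfactory and vomeronasal receptor genes, unlike the rest. Without them the 7 members other than Pvalb kept their call and direction against sham kidneys. The median member log2 fold change was -1.11 for UUO against sham kidneys and -1.06 for UUO_Si against sham kidneys, where the median of all tested genes was -0.04 in each. Pvalb passed the filter on low counts only through the sham libraries, so its fall was bound to appear and its test is not read. The counts of 7 lower members and the 2 member medians above include Pvalb. Of the other 7 members, 6 were lower and 1 higher in each contrast with sham kidneys. Their median was -0.98 for UUO and -1.04 for UUO_Si against sham kidneys.

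**Figure D1:**
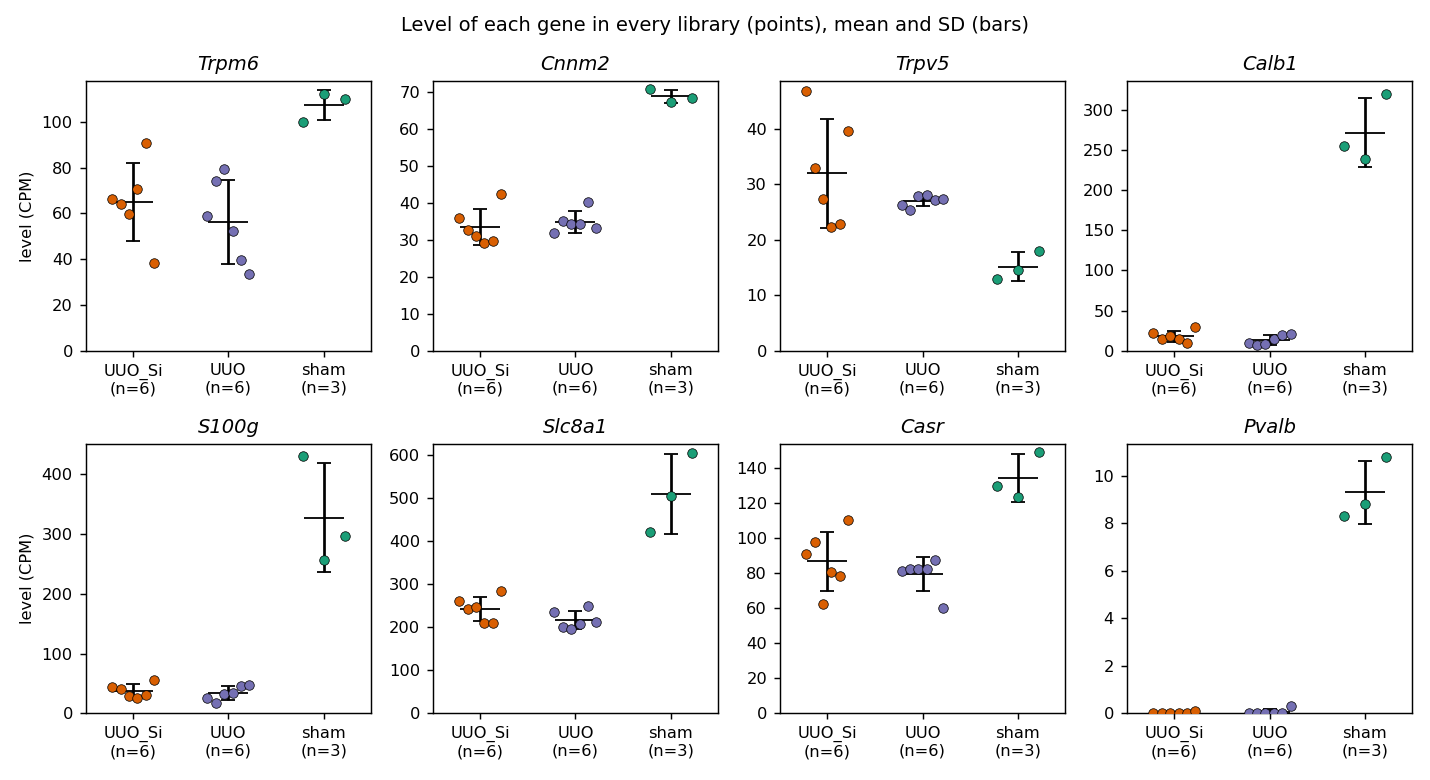
Level of each of the 8 genes in CPM (counts per 1000000 counts of the scaled library) in every library, by group, with points for libraries and bars for mean and SD; each panel has its own axis from 0. Trpv5 alone sits higher in both obstructed groups than in sham kidneys, Calb1, S100g and Pvalb sit near the floor of their panels, and the UUO_Si and UUO points overlap in every panel.

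The magnesium genes come first. Trpm6 encodes a channel fused to a kinase that forms the apical entry route for magnesium in the distal convoluted tubule (chromosome 19, 18749983 to 18892511, plus strand, GRCm38). Its level ran from 38.4 through a median of 65.4 to 91.0 CPM in UUO_Si kidneys. In UUO kidneys it ran from 33.5 through a median of 55.8 to 79.4 CPM. Sham kidneys had 100.2, 112 and 110.25 CPM. Every obstructed library lay below every sham library, and 3 of them, UUO_Si replicate 6 and UUO replicates 5 and 6, were the lowest. Its mean was 65.1 ± 17.0 CPM in UUO_Si (SD, n = 6), 56.4 ± 18.3 CPM in UUO (SD, n = 6) and 107 ± 6.40 CPM in sham kidneys (SD, n = 3). The log2 fold change was -0.93 ± 0.24 (standard error) for UUO against sham kidneys, with an edgeR adjusted p of 0.003924. For UUO_Si against sham kidneys it was -0.72 ± 0.25 with an edgeR adjusted p of 0.02037, and that call was lost without either of 2 sham libraries. Without sham replicate 2 the adjusted p was 0.0707 and without sham replicate 3 it was 0.0523.

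Cnnm2 encodes a membrane protein of the basolateral side of distal convoluted tubule cells, and its mutation in humans causes magnesium wasting (chromosome 19, 46761596 to 46880192, plus strand). Its level ran from 29.3 through a median of 31.8 to 42.5 CPM in UUO_Si kidneys. The UUO kidneys held 31.9 to 40.3 CPM around a median of 34.3 CPM. In sham kidneys it was 70.9, 67.4 and 68.4 CPM. The sham libraries were nearly equal, and the highest obstructed library stayed far below them. Cnnm2 averaged 33.5 ± 5.003 CPM in UUO_Si, 34.8 ± 2.88 CPM in UUO and 68.9 ± 1.80 CPM in sham kidneys (SD, n = 6, 6 and 3). The log2 fold change was -0.98 ± 0.11 for UUO against sham kidneys (edgeR adjusted p = 9.917e-07) and -1.04 ± 0.11 for UUO_Si against sham kidneys (edgeR adjusted p = 6.211e-07). The fall of Cnnm2 was close to that of Trpm6, with a smaller standard error.

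The calcium genes follow the path of the ion from urine to blood. Trpv5 encodes the apical calcium channel of the late distal convoluted and connecting tubule (chromosome 6, 41652173 to 41680769, minus strand). Its level ran from 22.3 through a median of 30.1 to 46.8 CPM in UUO_Si kidneys. In UUO kidneys the values were tight, from 25.4 through 27.2 to 28.04 CPM. The sham kidneys had 12.9, 14.5 and 17.997 CPM. Every obstructed library lay above every sham library. The UUO libraries stayed within a narrow band, while UUO_Si replicates 1, 2 and 6 were above it and replicates 4 and 5 below it. Trpv5 averaged 32.0 ± 9.80 CPM in UUO_Si, 27.0 ± 1.02 CPM in UUO and 15.1 ± 2.60 CPM in sham kidneys (SD, n = 6, 6 and 3). It rose by a log2 fold change of 0.84 ± 0.21 in UUO against sham kidneys (edgeR adjusted p = 0.002873) and of 1.09 ± 0.21 in UUO_Si against sham kidneys (edgeR adjusted p = 0.0003779).

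Calb1 encodes the large calbindin, which binds calcium in the cytosol and shuttles it across the cell (chromosome 4, 15881264 to 15908064, plus strand). Its level ran from 9.55 through a median of 16.5 to 29.8 CPM in UUO_Si kidneys. In UUO kidneys it ran from 7.08 through 11.9 to 20.7 CPM. In sham kidneys it was 254, 239 and 320.15 CPM. Even the highest obstructed library was far below the lowest sham library. The mean was 18.02 ± 7.14 CPM in UUO_Si, 13.2 ± 5.86 CPM in UUO and 271 ± 43.0 CPM in sham kidneys (SD, n = 6, 6 and 3). Its log2 fold change was -4.36 ± 0.32 for UUO against sham kidneys (edgeR adjusted p = 7.105e-09) and -3.90 ± 0.32 for UUO_Si against sham kidneys (edgeR adjusted p = 2.718e-08). Only 0.525% of tested genes had a lower fitted log2 fold change in UUO against sham kidneys.

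S100g encodes the small calbindin, which does the same work in the distal tubule and the gut (chromosome X, 162961992 to 162964599, minus strand). UUO_Si kidneys had 26.1 to 55.8 CPM around a median of 35.3 CPM. UUO kidneys had 16.9 to 47.2 CPM around a median of 32.8 CPM. The sham kidneys had 430.02, 256 and 296 CPM. The sham libraries differed among themselves, with replicate 1 highest, but all stayed above every obstructed library. The mean was 37.6 ± 11.3 CPM in UUO_Si, 33.4 ± 11.7 CPM in UUO and 327 ± 91.1 CPM in sham kidneys (SD, n = 6, 6 and 3). S100g fell by a log2 fold change of -3.29 ± 0.27 in UUO against sham kidneys (edgeR adjusted p = 2.888e-08) and of -3.12 ± 0.27 in UUO_Si against sham kidneys (edgeR adjusted p = 6.261e-08). Its gene overlaps Ctps2 on the other strand, and the strand setting of the counting is not given in the sources used here, so reads of the pair cannot be told apart. Ctps2 itself was at 49.9 ± 4.63 CPM in UUO_Si, 46.6 ± 3.30 CPM in UUO and 40.4 ± 4.15 CPM in sham kidneys (SD, n = 6, 6 and 3).

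The 250 bases before the start sites of S100g and of Pvalb, the calcium buffer with the fewest counts in obstructed kidneys, are shown because active vitamin D is known to act on calbindin genes through its receptor. That receptor and related nuclear receptors bind pairs of short half-sites. The sequences are RefSeq's for GRCm38.p6, read 5′ to 3′ on the gene's own strand, the minus strand for both, and 7 of the 8 members, all but Calb1, matched an entry. Capitals mark half-site letters and the TATA box letters TATAAA. The half-site searched was AGGTCA, with the variant GGTTCA and a further variant, AGTTCA, all on both strands, so that a half-site on the other strand appears as its reverse complement.
S100g, chrX:162964600-162964849: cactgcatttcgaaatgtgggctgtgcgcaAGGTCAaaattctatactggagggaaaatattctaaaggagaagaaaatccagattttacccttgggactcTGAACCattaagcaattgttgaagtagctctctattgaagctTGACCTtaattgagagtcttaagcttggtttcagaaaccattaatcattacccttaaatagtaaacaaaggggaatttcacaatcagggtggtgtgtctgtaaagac
Pvalb, chr15:78206401-78206650: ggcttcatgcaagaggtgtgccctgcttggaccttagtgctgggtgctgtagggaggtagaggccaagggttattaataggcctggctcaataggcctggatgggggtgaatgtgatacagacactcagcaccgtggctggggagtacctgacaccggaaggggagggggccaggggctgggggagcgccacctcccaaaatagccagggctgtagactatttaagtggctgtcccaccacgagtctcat
The S100g window held AGGTCA 220 bases before the start, the reverse complement of AGGTCA at 107 bases and that of GGTTCA at 149 bases, none of them overlapping, and no TATAAA. The Pvalb window, at 1 of its 2 RefSeq starts, held none of these letters. Of the 7 members with an entry, S100g alone held any of the half-sites searched and Trpv5 alone held TATAAA. Other half-site spellings were not searched, so the other windows are not shown to lack half-sites. Among 32851 RefSeq mouse windows of 250 bases, 12.4% held TATAAA. The half-site AGGTCA was in 14% of them, the variant GGTTCA in 8.85% and the variant AGTTCA in 11.8%, and 30.7% held at least 1 of these half-sites. Windows with 3 or more half-site matches made up 0.944%, a count chosen after the S100g window had been read. At 220, 149 and 107 bases before the start, no 2 of the S100g matches lie next to each other as a pair. The matches describe letters, not binding.

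Slc8a1 encodes the sodium-calcium exchanger that passes calcium out across the basolateral membrane, and heart and smooth muscle use it as well (chromosome 17, 81373105 to 81738377, minus strand). Its level ran from 209 through a median of 246 to 284 CPM in UUO_Si kidneys. UUO kidneys had 197 to 249.7 CPM around a median of 210.2 CPM. The values were 421, 505 and 606 CPM in sham kidneys. No obstructed library reached the lowest sham library. Slc8a1 averaged 243 ± 28.9 CPM in UUO_Si, 217 ± 21.1 CPM in UUO and 511 ± 92.9 CPM in sham kidneys (SD, n = 6, 6 and 3). The log2 fold change was -1.23 ± 0.12 for UUO against sham kidneys (edgeR adjusted p = 1.822e-07) and -1.07 ± 0.12 for UUO_Si against sham kidneys (edgeR adjusted p = 1.048e-06). Of 6 smooth muscle markers, 4 were higher and 0 lower in UUO than in sham kidneys, with the smallest p for Tagln and Des. Their summed level was 402 to 569 CPM in UUO_Si, 523 to 1226 CPM in UUO and 338 to 669.7 CPM in sham kidneys, and their part in the Slc8a1 values was not tested.

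Casr encodes the receptor by which thick ascending limb cells sense blood calcium (chromosome 16, 36493696 to 36562141, minus strand). UUO_Si kidneys had 62.6 to 110.45 CPM around a median of 85.7 CPM. UUO kidneys had 60.4 to 87.5 CPM around a median of 82.3 CPM. The sham kidneys had 129.96, 124 and 149 CPM. All obstructed libraries were below all sham libraries. Within UUO, replicate 5 at 87.5 CPM lay above and replicate 6 at 60.4 CPM far below the narrow band of the others, 81.5 to 82.7 CPM. Casr averaged 86.8 ± 16.7 CPM in UUO_Si, 79.4 ± 9.57 CPM in UUO and 134 ± 13.4 CPM in sham kidneys (SD, n = 6, 6 and 3). Its fall was the smallest of the 7, with a log2 fold change of -0.76 ± 0.15 for UUO against sham kidneys (edgeR adjusted p = 0.0002866). For UUO_Si against sham kidneys it was -0.63 ± 0.15 (edgeR adjusted p = 0.0016). The parathyroid gland is another main site of the receptor, and its markers Pth and Gcm2 were at or near 0. Their sum was 0 to 0.199 CPM in UUO_Si, 0 to 1.32 CPM in UUO and 0.143 to 3.03 CPM in sham kidneys. The highest sham value was that of replicate 3 alone, beside 0.143 and 0.160 CPM in replicates 1 and 2.

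Pvalb encodes parvalbumin, a cytosolic calcium buffer of the early distal convoluted tubule that is also abundant in fast skeletal muscle and in some neurons (chromosome 15, 78191114 to 78206400, minus strand). It was listed with a single count in all UUO_Si kidneys together, in replicate 6 at 0.0833 CPM. It had 4 counts in all UUO kidneys together, all in replicate 6 at 0.331 CPM. The sham kidneys had 8.31, 8.79 and 10.8 CPM, from 170 counts. The sham libraries were close to each other, and 10 of the 12 obstructed libraries were at 0. The ratio of the depth-scaled counts, sham over UUO, was 186, with an exact 95% interval of 71.2 to 689 that covers counting error only. Sham over UUO_Si it was 534, with an interval of 94.5 to 21212, since it rests on 1 count. Skeletal muscle markers gave a sum of 5.32 to 8.67 CPM in UUO_Si, 5.38 to 9.35 CPM in UUO and 8.63 to 27.5 CPM in sham kidneys. The highest sham value was that of replicate 3 alone, beside 8.88 and 8.63 CPM in replicates 1 and 2. Of the 4 of 7 markers tested, Atp2a1 was lower and Tnni2 higher in UUO than in sham kidneys, and Ckm was at 0 in every UUO_Si kidney. Of 4 neuronal markers, 2 were tested, Syt1, which did not pass, and Tubb3. Tubb3 was at 0 in every sham library and at a mean of 2.14 CPM in UUO kidneys. It thus passed the filter only through obstructed libraries, so its rise was bound to appear and its test is not read. The sum of the 4 neuronal markers was 1.47 to 4.33 CPM in UUO_Si, 1.61 to 6.37 CPM in UUO and 0.639 to 7.96 CPM in sham kidneys. Sham replicate 3 again held the highest sham value, beside 2.29 and 0.639 CPM in replicates 1 and 2. The part of muscle or nerve in the Pvalb values was not tested.

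**Figure D2:**
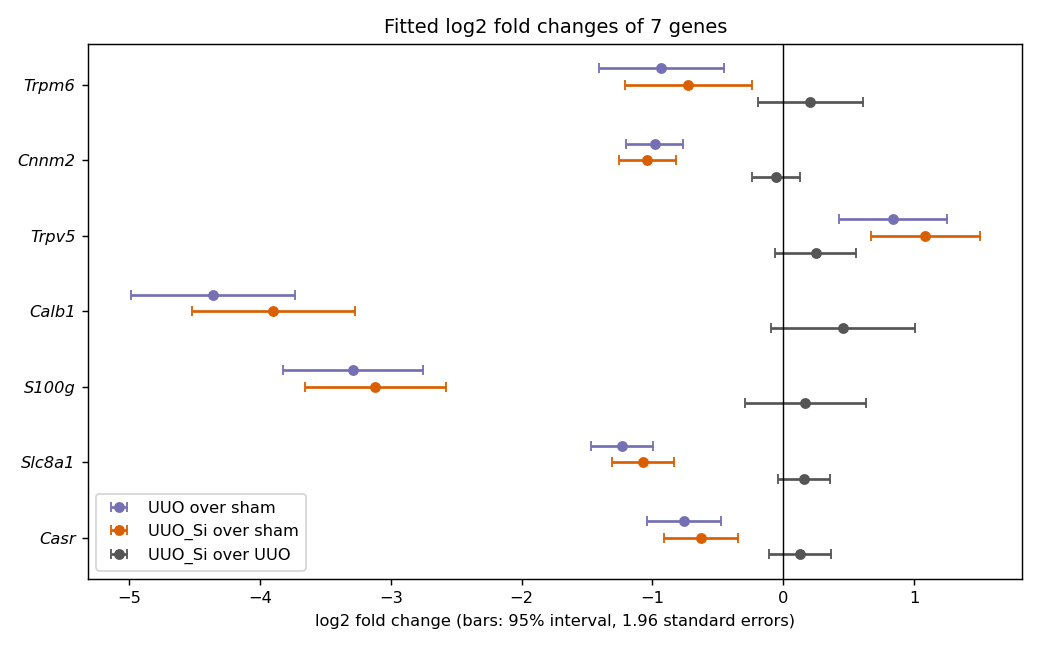
Fitted log2 fold change of 7 genes (Pvalb left out, as its fitted value depends on the prior count) for 3 contrasts, with bars for the 95% interval. Calb1 at -4.36 and S100g at -3.29 lie farthest left for UUO over sham, Trpv5 is the only gene right of 0 against sham, and all 7 intervals of UUO_Si over UUO include 0.

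Levels of different genes can be set side by side only per length, here as mean CPM per kb of annotated exon. In UUO_Si kidneys the order ran from S100g at 78.2 ± 23.4 CPM per kb through Casr at 18.4 ± 3.54, Slc8a1 at 12.9 ± 1.54, Trpv5 at 9.86 ± 3.02, Trpm6 at 8.44 ± 2.202, Cnnm2 at 6.48 ± 0.97 and Calb1 at 3.72 ± 1.47 to Pvalb at 0.0133 (SD, n = 6). In UUO kidneys the order was the same, from S100g at 69.7 ± 24.4 CPM per kb through Casr at 16.8 ± 2.03, Slc8a1 at 11.6 ± 1.12, Trpv5 at 8.32 ± 0.31, Trpm6 at 7.31 ± 2.37, Cnnm2 at 6.74 ± 0.56 and Calb1 at 2.71 ± 1.21 to Pvalb at 0.0530 (SD, n = 6). In sham kidneys S100g stood at 682 ± 189.7 CPM per kb, followed by Calb1 at 56.0 ± 8.88, Casr at 28.5 ± 2.85, Slc8a1 at 27.2 ± 4.94, Trpm6 at 13.9 ± 0.83, Cnnm2 at 13.3 ± 0.35, Pvalb at 8.93 ± 1.27 and Trpv5 at 4.67 ± 0.80 (SD, n = 3). Trpv5, Trpm6 and Cnnm2 lay within 1 SD of their neighbour in both obstructed groups, as did Casr with Slc8a1 and Trpm6 with Cnnm2 in sham kidneys, so these orders are not firm. Calb1 stood next to S100g at the head of the list in sham kidneys and next to last in both obstructed groups, while Trpv5 stood last in sham kidneys and in the middle in both obstructed groups.

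The diet was compared directly between the obstructed groups. No member passed the test, with an edgeR adjusted p of 0.9994 for each and a smallest unadjusted p of 0.1206, for Calb1. Over all tested genes edgeR called 0% lower and 0% higher, with 626 genes at an unadjusted p under 0.05, DESeq2 called 2 genes and limma-voom 0. Those 626 of 16752 genes are a smaller share than the 0.05 that p values spread evenly from 0 to 1 would give. Among the 7 members other than Pvalb, 6 had a fitted log2 fold change above 0 for UUO_Si against UUO kidneys. Calb1 had the largest, 0.46 ± 0.28, with a 95% interval of -0.09 to 1.01. Trpv5 followed at 0.25 ± 0.16, with an interval of -0.06 to 0.56. Trpm6 was at 0.21 ± 0.21, with an interval of -0.19 to 0.61. S100g was at 0.17 ± 0.24, with an interval of -0.29 to 0.63. These 4 intervals still admit a rise of more than 0.5 on the log2 scale under the diet. Slc8a1 was at 0.16 ± 0.10, with an interval of -0.04 to 0.36. Casr was at 0.13 ± 0.12, with an interval of -0.11 to 0.37. Only Cnnm2 lay below 0, at -0.05 ± 0.09 with an interval of -0.24 to 0.13, the narrowest of the 7. Pvalb had 1 count in UUO_Si and 4 counts in UUO kidneys, too few for a fold change.

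Within the obstructed groups, the libraries split along a series in the sample codes, of unstated meaning. The codes starting RM7 (1 UUO_Si library, replicate 6) and RM6 (2 UUO libraries, replicates 5 and 6) had the lowest Trpm6 of all. Trpm6 was 38.4 CPM in RM7, against 59.9 to 91.0 CPM in the other UUO_Si libraries, coded RM4. In RM6 it was 33.5 and 39.6 CPM, against 52.5 to 79.4 CPM in the other UUO libraries, coded RM3. For the calbindins the same libraries were the highest of their group. Calb1 was 29.8 CPM in RM7 against 9.55 to 21.7 CPM in RM4, and 19.4 and 20.7 CPM in RM6 against 7.08 to 13.99 CPM in RM3. S100g was 55.8 CPM in RM7 against 26.1 to 43.6 CPM in RM4, and 45.7 and 47.2 CPM in RM6 against 16.9 to 33.7 CPM in RM3. Across groups this order did not hold: UUO_Si replicate 1, of RM4, had Calb1 at 21.7 CPM, above both RM6 libraries, with Trpm6 at 66.5 CPM. In the RM7 library Slc8a1 at 284 CPM, Cnnm2 at 42.5 CPM and Casr at 110.45 CPM were also the highest of the UUO_Si group. For these 3 genes the RM6 libraries did not both lie above RM3. Slc8a1 was 249.7 and 213 CPM in RM6 against 197 to 237 CPM in RM3. Cnnm2 was 40.3 and 33.2 CPM in RM6 against 31.9 to 35.0 CPM in RM3. Casr was 87.5 and 60.4 CPM in RM6 against 81.5 to 82.7 CPM in RM3. Outside the members, the pattern in both series was not particular to the calbindins. Proximal tubule markers summed to 1345 CPM in RM7 against 456 to 1054 CPM in RM4, and to 1061 and 1129 CPM in RM6 against 575 to 716 CPM in RM3. Their part in these values was not tested. Trpv5 did not separate RM6, at 27.1 and 27.4 CPM, from RM3, at 25.4 to 28.04 CPM. The same 3 libraries had counts in 980 (UUO_Si replicate 6), 785 (UUO replicate 5) and 1258 (UUO replicate 6) of 1456 olfactory and vomeronasal receptor genes, while the other obstructed libraries had counts in 91 to 136. Sham replicate 3 also had counts in 1227 of them, with Trpm6 at 110.25 CPM, inside the sham range. Without these 4 libraries Trpm6 still fell in UUO against sham kidneys, with a log2 fold change of -0.67 and an edgeR adjusted p of 0.00254. Calb1 was then at -4.64 and S100g at -3.66. Each code series lies in a single group, so series and group cannot be told apart between groups.

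**Figure D3:**
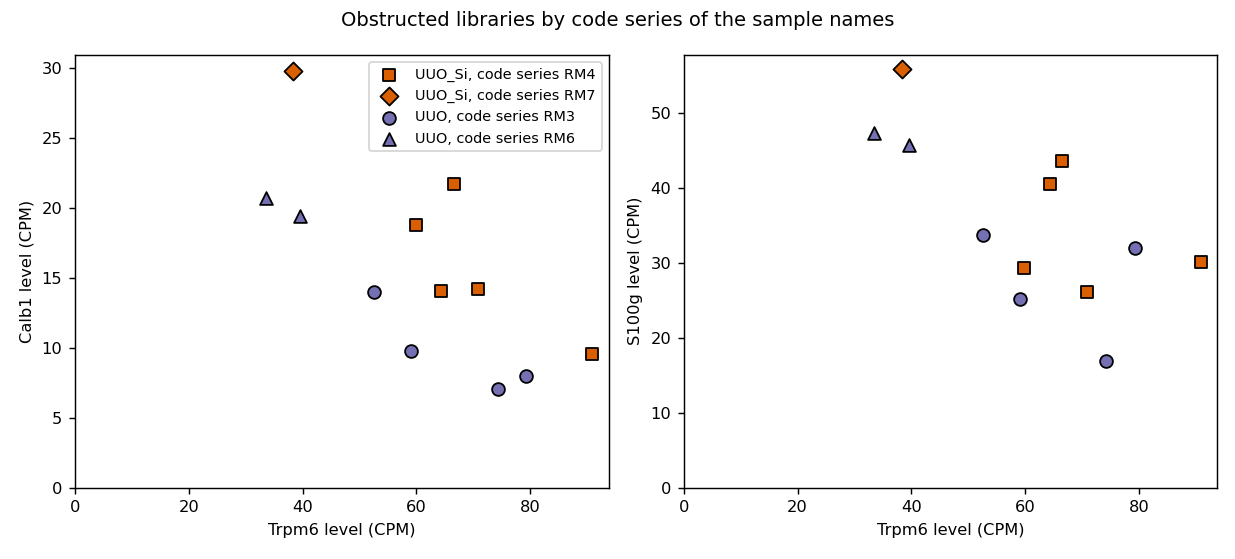
Calb1 (left) and S100g (right) against Trpm6, all in CPM, in the 12 obstructed libraries, with colour for the group and shape for the code series of the sample names. The UUO_Si library of RM7 and the UUO libraries of RM6 lie at the left, with Trpm6 at 33.5 to 39.6 CPM, and have the highest Calb1 and S100g of their own group.

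A fall in a distal transcript can be set against another distal transcript. For Casr, described above for the thick ascending limb, and Slc8a1, which smooth muscle uses as well, such a ratio does not stay within a single segment. Slc12a3, the thiazide-sensitive sodium-chloride cotransporter that defines the distal convoluted tubule, ran from 181 through a median of 195 to 305 CPM in UUO_Si kidneys. In UUO kidneys it ran from 113 through 158 to 219 CPM. The sham kidneys had 1839, 1588 and 1227 CPM. Slc12a3 was thus 9.39-fold lower in UUO than in sham kidneys, a log2 fold change of -3.23 ± 0.20 (edgeR adjusted p = 1.259e-09). Few genes fell as far: only 1.49% of tested genes had a lower fitted log2 fold change than S100g, which was at -3.29. Most tested genes would thus be higher relative to Slc12a3, so that direction does not set members apart from other genes. How many genes would be so without overlap of libraries, or would pass the permutation test below, was not computed. The calls on these ratios are therefore not read as particular to the members. Trpm6, Trpv5, Slc8a1, Cnnm2 and Casr were higher relative to Slc12a3 in UUO than in sham kidneys, with no overlap of libraries. The log2 ratio of Trpm6 to Slc12a3 was -1.57 ± 0.30 in UUO and -3.83 ± 0.36 in sham kidneys (SD, n = 6 and 3), a difference of 2.26. For Trpv5 the log2 ratio was -2.57 ± 0.42 in UUO and -6.65 ± 0.54 in sham kidneys (SD, n = 6 and 3), a difference of 4.09, the largest of the members. The difference was 2.49 for Casr, 2.27 for Cnnm2 and 2.03 for Slc8a1. Each of these 5 had p = 0.0119 in a two-sided exact permutation test, the smallest the 84 regroupings can give, and 0.0238 after adjustment over 24 comparisons (8 members, 3 contrasts). S100g differed from Slc12a3 by only -0.08 in log2 ratio (exact permutation p = 0.917, adjusted 0.917), with a log2 ratio of -2.34 ± 0.91 in UUO and -2.26 ± 0.32 in sham kidneys (SD, n = 6 and 3). Calb1 was lower relative to Slc12a3 by a log2 difference of -1.20, which missed the threshold (exact permutation p = 0.0833, adjusted 0.133).

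The UUO_Si kidneys gave the same directions against sham kidneys, under the same limit. The difference in log2 ratio to Slc12a3 was 2.09 for Trpm6, 3.88 for Trpv5, 2.21 for Casr, 1.81 for Cnnm2 and 1.79 for Slc8a1, each with an exact permutation p of 0.0119 and 0.0238 adjusted. It was -1.12 for Calb1 (exact permutation p = 0.0595, adjusted 0.102), which passed without UUO_Si replicate 6 (-1.31, adjusted 0.033), and -0.28 for S100g (exact permutation p = 0.405, adjusted 0.486). Between UUO_Si and UUO kidneys no ratio passed, and Cnnm2 came nearest, with a difference of -0.46 (exact permutation p = 0.0584, adjusted 0.102). Slc12a3 itself had a log2 fold change of 0.38 ± 0.17 for UUO_Si against UUO kidneys, which did not pass (edgeR adjusted p = 0.9994). The choice of denominator mattered. The sum used next included Slc12a3 itself, at a mean of 165 CPM in UUO and 1551 CPM in sham kidneys. It also included Wnk1, its largest part in UUO kidneys, at 708 CPM in UUO and 1120 CPM in sham kidneys. With the summed counts of 15 distal convoluted and connecting tubule genes in place of Slc12a3, the difference for UUO against sham kidneys was 0.46 for Trpm6 (exact permutation, adjusted p = 0.21) and 0.23 for Slc8a1 (adjusted 0.357), neither passing. Calb1 at -3.00 and S100g at -1.88 then passed (exact permutation, adjusted p = 0.0286 each), and Trpv5 at 2.29, Casr at 0.69 and Cnnm2 at 0.47 passed as well (adjusted 0.0286 each). In UUO_Si against sham kidneys Trpm6, Slc8a1, Cnnm2 and Casr no longer passed with that sum, while Trpv5 did, and Calb1 at -2.69 and S100g at -1.84 passed too (exact permutation, adjusted p = 0.0286 each). No Pvalb ratio is given, since it would rest on the prior count.

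**Figure D4:**
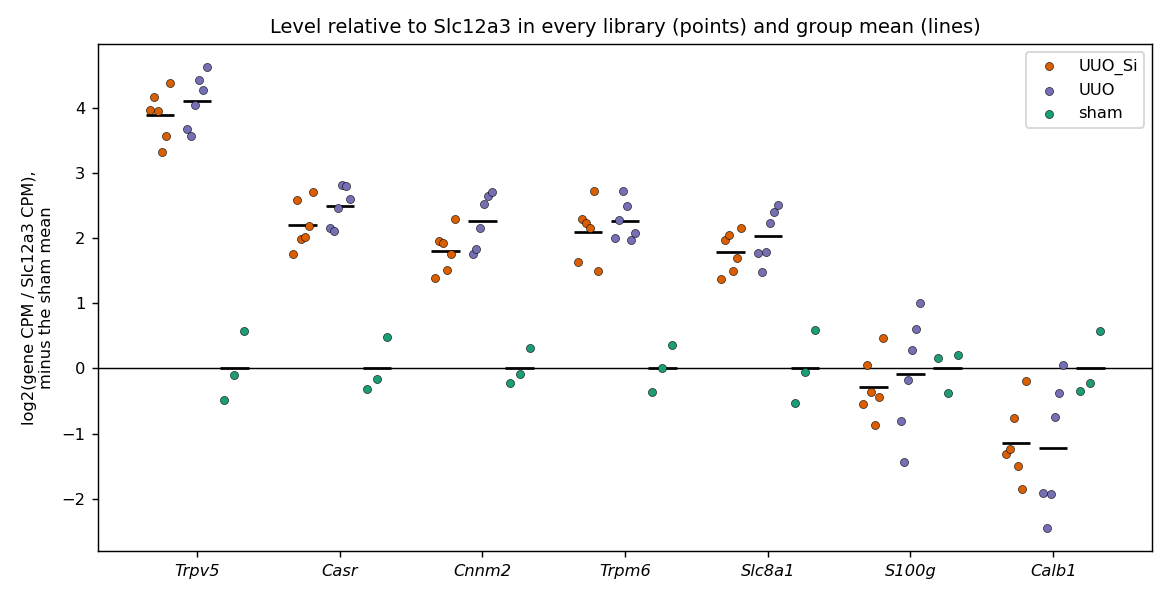
Log2 ratio of each gene's CPM to Slc12a3's in every library, minus the mean of the sham libraries, with points for libraries and lines for group means; Pvalb is left out. Trpv5, Casr, Cnnm2, Trpm6 and Slc8a1 lie above the sham libraries in both obstructed groups, S100g spreads around 0 and Calb1 mostly lies below it.

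Other genes of the 2 pathways and their segments were read from lists drawn from textbook knowledge. Of 23 other magnesium genes, 12 were lower and 8 higher in UUO than in sham kidneys, with a median log2 fold change of -0.42 where all tested genes had -0.04. Egf, a growth factor made in the distal convoluted tubule that promotes Trpm6 activity, was at -6.00 ± 0.27 (edgeR adjusted p = 5.674e-11). Its mean was 78.1 CPM in UUO_Si, 55.7 CPM in UUO and 3557 CPM in sham kidneys. The potassium channel subunit Kcnj16 (-1.64, edgeR adjusted p = 4.643e-09) and the Cnnm2 relative Cnnm1 (-2.22, edgeR adjusted p = 1.053e-07) also fell. The sodium pump subunit Fxyd2 was at -2.04 and Trpm7, the close relative and channel partner of Trpm6, was at -0.98. The genes that rose held the phosphatases Ptp4a1, Ptp4a2 and Ptp4a3, whose proteins bind the CNNM family. Ptp4a2 was at 1.74 (edgeR adjusted p = 9.476e-09), Ptp4a1 at 1.26 and Ptp4a3 at 0.88. The magnesium carriers Slc41a1 at 0.76 and Slc41a3 at 1.09 rose too, as did Nipa1 at 0.99, Nipa2 at 0.53 and Tusc3 at 0.79. Cnnm3, Slc41a2 and Egfr did not pass.

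Of 19 other calcium carriers and calcium hormone genes tested, 7 were higher and 7 lower in UUO than in sham kidneys, with a median of 0.08. Trpv6, the channel most like Trpv5, rose as Trpv5 did, at 1.51 ± 0.34 (edgeR adjusted p = 0.001118), and reads shared by these 2 related genes were not assessed. Anxa2 was at 2.41 (edgeR adjusted p = 5.704e-10) and S100a10 at 1.03 (edgeR adjusted p = 4.015e-06). Their proteins form a complex that carries Trpv5 and Trpv6 to the membrane. The plasma membrane calcium pump Atp2b1 was at 0.57, whereas Atp2b2 was at -2.24 (edgeR adjusted p = 5.973e-08). The calmodulin gene Calm2 at 1.01 and the pump gene Atp2b4 at 0.24 rose as well. Klk1, a tubular protease that stabilises Trpv5 at the surface, was at -3.85 (edgeR adjusted p = 4.202e-09), and Kl, the Klotho co-receptor, was at -2.95 (edgeR adjusted p = 1.417e-08). The vitamin D receptor Vdr was at -1.54, its partner Rxra at -0.55, the vitamin D degrading enzyme Cyp24a1 at -1.44 and the parathyroid hormone receptor Pth1r at -1.12. Cyp27b1, which makes active vitamin D, was at -0.16 and did not pass (edgeR adjusted p = 0.6034).

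Casr sits in the thick ascending limb, and there 7 of 11 tested genes were lower and 3 higher in UUO than in sham kidneys, with a median of -1.21. Slc12a1, the salt cotransporter of the segment, was at -2.58 (edgeR adjusted p = 5.175e-09) and the potassium channel Kcnj1 at -1.38 (edgeR adjusted p = 1.394e-08). The claudin Cldn3 was higher, at 2.17 (edgeR adjusted p = 4.183e-09), as were Cldn19 at 0.64 and Rragd at 0.94. Cldn16, the partner of Cldn19 in the magnesium and calcium pore between cells, was at 0.40 and did not pass. Among the 15 distal convoluted and connecting tubule genes 13 were lower and 0 higher, with a median of -0.96. Beside Slc12a3 the smallest p values were those of Klhl3 at -2.91 (edgeR adjusted p = 1.587e-10), Scnn1a at -1.70 (edgeR adjusted p = 5.841e-09) and Ppp1r1a at -2.96 (edgeR adjusted p = 1.606e-08). For comparison, Calb1 was at -4.36 and S100g at -3.29, and Casr, at -0.76, was nearer to 0 than any thick ascending limb gene that fell. Between UUO_Si and UUO kidneys 0 genes of these 4 lists passed. The list medians there were 0.03 for magnesium, 0.04 for calcium, 0.27 for thick ascending limb and 0.21 for distal convoluted and connecting tubule genes, beside 0.00 over all tested genes. In the last list 15 of 15 genes were above 0, as were 10 of 11 thick ascending limb, 14 of 23 magnesium and 10 of 19 calcium genes. Genes of a list were measured in the same libraries and are not independent.

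**Figure D5:**
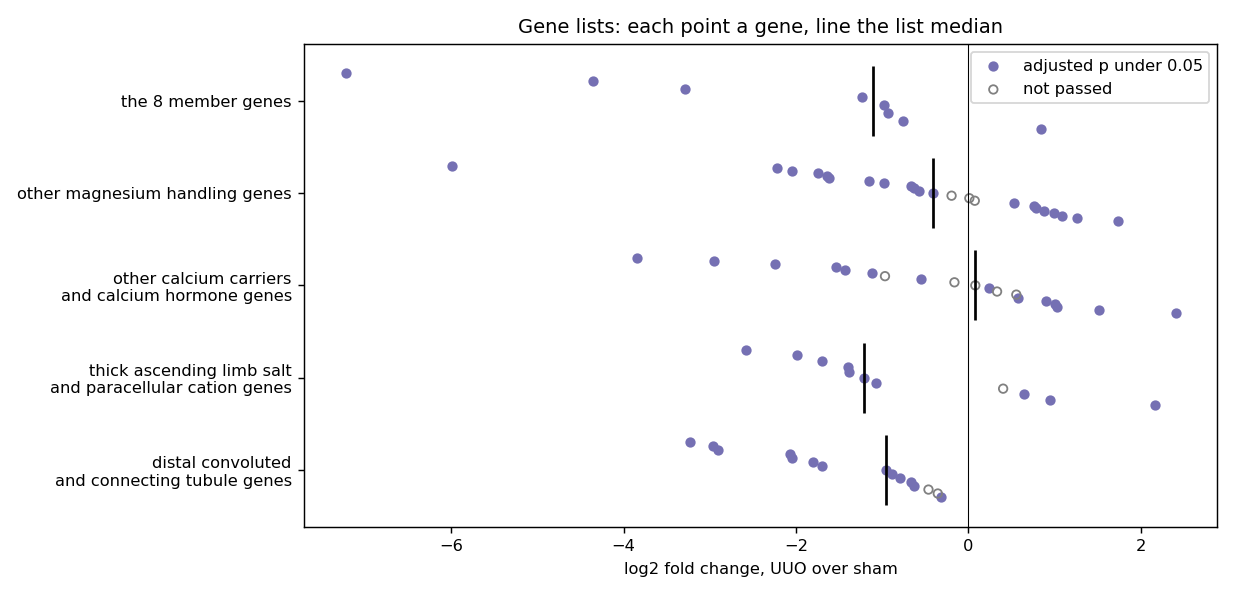
Log2 fold change, UUO over sham, of the 8 genes described and of 4 gene lists, with filled points for genes past an adjusted p of 0.05, open points for the others and a line at each list's median; the leftmost point of the top row is the fitted value of Pvalb, which depends on the prior count. Among the 8 only Trpv5 lies right of 0, both the magnesium and calcium lists spread to both sides, and the distal convoluted and connecting tubule genes all lie left of 0.

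Other cell types changed alongside the members, and their part in the members' values was not tested. Of the lists not given above, all 5 proximal tubule markers and all 6 collecting duct markers were lower in UUO than in sham kidneys, with the smallest p for Lrp2 and Cubn and for Slc26a4 and Slc4a1. All 5 macrophage, all 4 fibroblast and all 5 urothelial markers were higher. Macrophage markers summed to 592 to 949 CPM in UUO_Si, 647 to 874 CPM in UUO and 94.6 to 120.1 CPM in sham kidneys. Of 4 endothelial markers 2 were higher and 1 lower. Library totals were 7754724 to 11465936 counts in UUO_Si, 11151023 to 15422613 counts in UUO and 5526642 to 8308121 counts in sham kidneys.

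The tested genes most like each member were sought among 12900 genes with a mean of at least 5 CPM. The measure was the root mean square difference between log2 levels, each centred on its own mean over the 15 libraries, so that a smaller value means a closer pattern. Cnnm2 had the closest neighbours, Lmtk2 at 0.0961, Pfkm at 0.109 and Tmco3 at 0.112. Slc8a1 was followed by Phb at 0.122, Vdac1 at 0.13 and Ankib1 at 0.139. For Casr they were Gpd2 at 0.153, Arhgap6 at 0.163 and Pex7 at 0.171, and for Trpm6 they were Map3k6 at 0.156, Pick1 at 0.169 and Snapc4 at 0.17. These 4 members had closer neighbours than the other 4, but the measure also carries the size of the shift between sham and obstructed kidneys. Trpv5 was nearest to Rps6ka6 at 0.183, Eif1a at 0.19 and S100a10 at 0.19, the last of them its known partner protein. For S100g they were Cgref1 at 0.235, Sord at 0.261 and Iyd at 0.278. For Calb1 they were Gm10681 at 0.309, Hsd3b4 at 0.312 and Ugt3a2 at 0.314. Pvalb was the least matched, with Gldc at 0.409, Cml1 at 0.432 and Kap at 0.452, but its log2 level in libraries at 0 counts is set by the prior count. No distal convoluted and connecting tubule gene of the list was among the 3 nearest of any member.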

How the data were processed

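The deposited table gave expected counts per gene symbol for 15 libraries of total kidney RNA (SMARTer stranded Pico kit, per the labels' protocols), and they were rounded to whole counts. mm10, TopHat2 2.1.1 and Cuffdiff 2.2.1 are named by the submitters' processing notes; the counting step, strand setting and annotation are not given in the sources used here. With edgeR 4.0.16 under R 4.3.3, 16752 of 24421 genes passed the filter (minimum count 10). All libraries entered a single quasi-likelihood fit with TMM scaling, and p values were adjusted by Benjamini-Hochberg over all tested genes and called at 0.05. Standard errors are the log2 fold change over the square root of F. Log2 ratios used a prior count of 2 and a two-sided exact permutation test. Positions and exon lengths come from GENCODE M21 (GRCm38), whose names matched 95.7% of symbols. The interval of the Pvalb count ratio covers counting error only, while intervals of log2 fold changes come from the standard errors and carry the spread between libraries. Steps were tested on simulated data. Alternatives were upper-quartile or RLE scaling, a minimum count of 30 or none, DESeq2 1.42.0, limma-voom (limma 3.58.1), fits of the 2 groups compared, without single libraries, without the receptor-gene libraries, without code series RM6 and RM7, without ribosomal RNA and haemoglobin genes, and with a replicate block. For the ratios they were a summed denominator and a prior count of 0.5. The members, the gene lists and the tests were chosen with earlier results of these data known. Named genes were all members, the 4 smallest p of each pathway list and its members against the majority, up to 2 markers per cell type list and the 3 nearest patterns; other list members named in the text were chosen after their values were seen. Some list members that met the rule are not reported here.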

Additional observations from a re-analysis of the deposited data

Results flagged for a closer look

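In 3 of 16 groups of 6 libraries (8 members in UUO_Si and in UUO) a single library stood far from the others of its group. Chance gives about 1 in 20 for continuous values, but that rate does not apply to the 2 Pvalb groups, where any library with a count stands apart from the rest at 0. Pvalb was at 0.0833 CPM in UUO_Si replicate 6 and at 0 in the other UUO_Si libraries, a difference of 1 count. Pvalb was at 0.331 CPM in UUO replicate 6 and at 0 in the other UUO libraries, a difference of 4 counts. Casr was at 60.4 CPM in UUO replicate 6, and its distance to the next UUO library made up 0.807 of the range of the group. All 3 values come from libraries with counts in most of the receptor genes, and the part of that in them was not tested.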

How the results depend on the processing

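The 7 members other than Pvalb, whose test is not read, kept their call and direction for UUO against sham kidneys under every alternative run. The log2 fold change ran from -1.05 to -0.67 for Trpm6, 0.75 to 0.98 for Trpv5 and -4.79 to -4.22 for Calb1. For UUO_Si against sham kidneys Trpm6 lost its call without sham replicate 2 or 3, and the others of these 7 kept theirs. For UUO_Si against UUO kidneys no member passed under any alternative, and DESeq2 called 2 of all genes. Casr there was at -0.003475 without the receptor-gene libraries and at -0.003551 without code series RM6 and RM7; the cause was not tested. Same-numbered libraries deviated with correlations of -0.39 to 0.754 between UUO_Si and UUO, 2 of 6 of them over 0.1. Such correlations cannot settle whether replicate numbers pair the samples. With a replicate block 8433 genes were called for UUO against sham, 8268 for UUO_Si against sham and 0 for UUO_Si against UUO. The members other than Pvalb then kept their calls and directions against sham kidneys. The count of 12 ratios to Slc12a3 that passed, 2 of them Pvalb's, ran from 0 to 13 with single libraries left out, the added one being Calb1's for UUO_Si against sham without UUO_Si replicate 6. It was 0 without any one sham library, because the smallest adjusted p is then 0.0714. The S100g ratio for UUO against sham ran from -0.2961 to 0.189 with single libraries left out, and for UUO_Si against UUO from -0.4688 to 0.01638, while that of Calb1 for UUO_Si against UUO ran from -0.1623 to 0.3318. With the summed denominator the UUO_Si against UUO ratios turned to 0.0635 for Trpm6, 0.0229 for Trpv5 and 0.03186 for S100g. The causes of these ratio changes were not tested. Upper-quartile scaling called 5034 genes higher and 3973 lower for UUO against sham, where TMM gave 4609 and 4427. With 3 sham libraries, and with 1 and 4 Pvalb counts in the obstructed groups, precision is set by few libraries and low depth.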
